A study of Mus musculus with 8 samples.

Results

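The 17 clonotypes described here are the expanded Cd8 T cell clonotypes that rank directly below the largest one in the bone marrow of mice carrying the RUNX1::RUNX1T1 fusion gene. A clonotype is the set of cells whose T cell receptor (TCR) has the same pair of CDR3 nucleotide sequences, taken from the TRA and the TRB chain with most UMIs (unique molecular identifiers, 1 per captured RNA molecule). A cell was counted as Cd8 when it had 1 or more UMIs of Cd8a or Cd8b1 and 0 of Cd4, and it was kept if it had 200 or more genes and no more than 15% of its UMIs from mitochondrial genes. In the 2 fusion pools 18 clonotypes had 30 or more such cells. The largest, with 1102 cells, was left out, and the other 17 hold 1250 cells, 11% of the 11367 Cd8 cells with both chains in these pools and a small part of the 55850 cells that pass the limits in the whole series. They are numbered 2 to 18 by falling size, from 166 to 31 cells, with a median of 63.

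The series has 4 pools of sorted T cells, 2 labelled RUNX1::RUNX1T1 and 2 labelled Control, each with a gene expression and a TCR library. The fusion mice, on a C57BL/6 background, carried a heterozygous Runx1Runx1t1 knock-in allele and Mx1-Cre, an interferon-inducible Cre that is active in blood cells and in other tissues. The controls were sex-matched littermates with the knock-in allele but no Mx1-Cre by the methods, while the labels name their genotype WT. All mice received Poly(I:C), 4 injections of 5 mg/kg, and were killed 4 weeks after induction. Live CD3+ cells negative for mCherry were sorted in both groups. This reporter marks cells that express the fusion gene, so the T cells analysed are cells of fusion mice in which it was not seen. Marrow of 2 mice was mixed for each pool, so a pool, not a mouse, is the unit of replication, and which mouse a cell came from is not known. The pools gave 102883449 and 100115383 UMIs (fusion pools 1 and 2) and 90958101 and 99869646 UMIs (Control pools 1 and 2) in 13633 to 14664 barcodes, with a median of 6239 to 6368 UMIs per barcode. Any 2 libraries shared between 256 and 306 barcode sequences. No Control clonotype reached 30 Cd8 cells, and the largest there had 24 cells. Clonotypes of 30 or more cells held 0 of 5016 and 0 of 5892 paired Cd8 cells in the Control pools, which by cell counting alone allows a share of up to 0.0735% and 0.0626% (exact Clopper-Pearson 95% interval). They held 7.88% and 33.7% (the largest clonotype included) in the fusion pools. These shares rest on the limit of 30 cells, cells of a clonotype are not independent of each other, and no test was made between the groups.

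Each T cell carries a TCR made by joining V, D and J gene segments, so cells with identical CDR3 sequences descend, as a rule, from 1 precursor that divided. Cd8 T cells that have met antigen take different paths. Short-lived effector cells carry the receptor Klrg1 and the chemokine receptor Cx3cr1 and circulate under control of S1pr5 and Zeb2. Cells under lasting antigen exposure carry the inhibitory receptor Pdcd1 (PD-1) with the transcription factor Tox, and Adgrg1 (GPR56) is an adhesion receptor found on cytotoxic lymphocytes. On GRCm38 (GENCODE M21) Klrg1 lies at chr6:122270596-122282882, Cx3cr1 at chr9:119901616-120069879, Pdcd1 at chr1:94038305-94052553 and Adgrg1 at chr8:94974751-95014217.

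Fusion pool 1 held 6 of the clonotypes (5, 6, 7, 8, 10 and 16, 452 cells) and fusion pool 2 held 11 (798 cells). None was found in both fusion pools, and 1 of the 17 was seen in a Control pool, as 1 cell with the receptor of clonotype 11. A comparison of clonotypes within a pool therefore has no replicate, and one between pools is also one between mice. By the Xist and Y-linked counts given further down it is also one between the sexes, and pool and sex cannot be told apart. The levels below are UMIs of a gene per 1000000 UMIs summed over the cells of a clonotype (CPM), with exact Poisson 95% intervals that cover counting error only, and no test was made between clonotypes. The rule counted Cd8a, Cd8b1 and Cd4, so these genes check nothing. The list of 6 Cd8 cell markers holds Cd8a and Cd8b1 beside Cd3d, Cd3e, Cd3g and Lck, which all T cells share, and it summed to 4649 to 9204 CPM in the 17 clonotypes. The 4 Cd4 cell markers, Cd4 among them at 0 by the rule, summed to 0 to 19.5 CPM and the 5 B cell markers to 0 to 16.6 CPM. Outside the gate lay 66 further cells with these receptors, 49 of them with a Cd4 UMI, and 14 of these belong to clonotype 15 and 9 to clonotype 17, the clonotypes with the highest median UMIs per cell (9236 and 10010.5). Median UMIs per cell were 4265 to 8538 in the other 15.

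The CDR3 sequences are shown for the clonotypes whose expression stood apart. Clonotypes 7, 10 and 18, the only 3 with more Klrg1 and Cx3cr1 than Pdcd1 and Adgrg1, use different V genes in both chains. Clonotypes 7 (TRAV14-1) and 10 (TRAV7-6) share the joining segment TRAJ49 with clonotype 15 (TRAV16), the clonotype that carried both gene pairs. The capitals mark the run of 23 bases at the 3′ end that these 3 TRA chains share.
clonotype 7 TRA: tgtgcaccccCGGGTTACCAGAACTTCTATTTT
clonotype 10 TRA: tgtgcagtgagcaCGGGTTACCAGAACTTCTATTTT
clonotype 15 TRA: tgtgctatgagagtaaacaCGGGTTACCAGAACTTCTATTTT
clonotype 18 TRA: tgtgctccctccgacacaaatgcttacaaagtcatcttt
clonotype 7 TRB: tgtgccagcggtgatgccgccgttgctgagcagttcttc
clonotype 10 TRB: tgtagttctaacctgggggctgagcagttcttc
clonotype 18 TRB: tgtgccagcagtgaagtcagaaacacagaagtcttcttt
TRAJ49 was in 3 of the 17 members and in 4.64% and 4.62% of the Cd8 cells whose clonotype has a single cell, in pools 1 and 2. These V and J genes were noticed after the expression values were seen.

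Clonotypes 9 (TRBV19, TRBJ2-4) and 14 (TRBV13-3, TRBJ2-4), both of pool 2, had the most similar TRB chains among the members: 26 bases at the 3′ end are the same, in capitals here, and their proteins of 14 residues differ at 1 position.
clonotype 9 TRB: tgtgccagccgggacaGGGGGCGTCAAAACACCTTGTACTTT
clonotype 14 TRB: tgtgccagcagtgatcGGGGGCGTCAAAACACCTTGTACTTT
Their TRA chains use TRAV12D-2 with TRAJ5 and TRAV16 with TRAJ37. In gene expression each was less like the other than like clonotypes 5 and 3, as given further down.

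Clonotypes 12 and 13 of pool 2 both join TRAV6N-6 to their own TRAJ segment and TRBV1 to TRBJ1-3, with CDR3 lengths of 36 and 45 bases. The 15 residues of their TRB CDR3 differ at 2 positions and the 12 residues of their TRA CDR3 at 3. The largest clonotype uses TRBV1 too, with TRBJ2-7. Clonotypes 12 and 13 have the same base at 40 of the 45 positions of this chain, and the capitals mark their longest shared run, of 19 bases.
clonotype 12 TRB: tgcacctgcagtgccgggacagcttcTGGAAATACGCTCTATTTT
clonotype 13 TRB: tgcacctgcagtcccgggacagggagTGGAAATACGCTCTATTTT
clonotype 1 TRB: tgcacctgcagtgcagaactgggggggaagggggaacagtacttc
The TRB of the largest clonotype was also present as an additional chain in 17 of the 44 cells of clonotype 12 (median 14 UMIs, against 26 for their own TRB) and in 10 of the 43 cells of clonotype 13 (median 5 against 12). It was an additional chain in 0 of the other 4444 paired Cd8 cells of pool 2 outside the largest clonotype, of which 408 had an additional TRB. A further 10 cells paired the TRA of clonotype 12, and 16 the TRA of clonotype 13, with the TRB of the largest clonotype as their leading chain. TRAV6N-6 belongs to a family of near-identical duplicated genes, so its assignment is uncertain.

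An additional TRB was found in 4 of the 17 clonotypes, in 176 of the 1250 member cells, and in 9.88% and 9.06% of the single-cell clonotypes' cells in pools 1 and 2. An additional TRA was in 0 of the 1250 member cells, against 16.9% and 15.5% of the single-cell clonotypes' cells. The cells of a clonotype share their receptor, so the member counts rest on 17 clonotypes and not on 1250 independent cells. Clonotypes were built on the leading chains, so a lineage with an additional chain can be split and fall below 30 cells. No test was made of these shares. In clonotype 7, 66 of 75 cells had the same additional TRB (median 8 UMIs against 14), shown here, which was an additional chain in 0 of the 5632 cells of pool 1 with another TRA. The 27 cells that pair the TRA of clonotype 7 with this chain as the leading TRB fall just below the 30-cell limit as a clonotype of their own, and 24 of them carried the TRB of clonotype 7 in addition.
clonotype 7 additional TRB: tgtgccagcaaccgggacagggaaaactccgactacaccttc
In clonotype 4, 83 of 121 cells held a low level (median 2 UMIs against 17) of the TRB that is the leading chain of clonotype 17, also of pool 2. Outside clonotypes 4 and 17 this chain was an additional TRB in 0 of 5480 cells. Both clonotypes use TRBV20, and none of the 32 cells of clonotype 17 had an additional TRB.
clonotype 17 TRB: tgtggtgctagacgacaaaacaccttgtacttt

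The members took different positions on the 2 gene pairs that the rule names. Clonotypes 7, 10 and 18 were high in Klrg1 and Cx3cr1 and low in Pdcd1 and Adgrg1, 12 clonotypes had the opposite pattern, clonotype 15 had both pairs and clonotype 2 had little of either. The balance of a clonotype is log2 of its summed Klrg1 and Cx3cr1 CPM plus 10 over its summed Pdcd1 and Adgrg1 CPM plus 10. It was above 0 in 3 clonotypes and below 0 in 14, and 2 of the 3 were among the 6 of pool 1. Since the contrast of these 2 gene pairs was chosen with results of these data known, the values are a description.

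**Figure D1:**
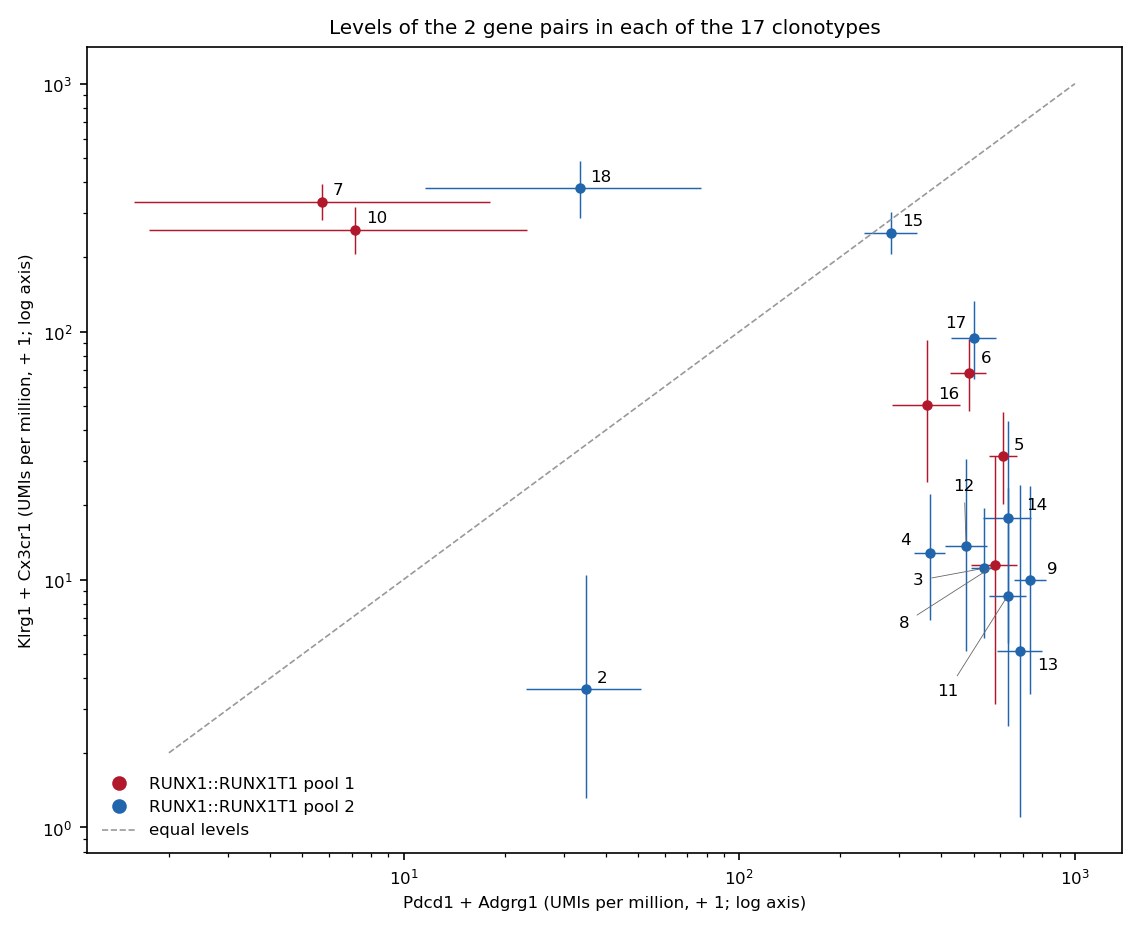
Summed Klrg1 and Cx3cr1 CPM (vertical) against summed Pdcd1 and Adgrg1 CPM (horizontal), both plus 1 on log axes, for the 17 clonotypes, with exact Poisson 95% intervals and red for pool 1 and blue for pool 2. Clonotypes 7, 10 and 18 sit at the upper left, clonotype 2 at the lower left, clonotype 15 next to the line of equal levels and the other 12 at the lower right.

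Clonotype 7 had 208 CPM of Klrg1 and 125 CPM of Cx3cr1, with 2.36 CPM each of Pdcd1 and Adgrg1. Clonotype 10 had 108 CPM of Klrg1 and 148 CPM of Cx3cr1, with 6.18 CPM of Pdcd1 and no Adgrg1 UMI. Clonotype 18 had 195 CPM of Klrg1 and 182 CPM of Cx3cr1, with 32.5 CPM of Pdcd1 and no Adgrg1 UMI. Single-cell clonotypes had 5.41 and 8.07 CPM of Pdcd1 in pools 1 and 2, a level that clonotypes 7 and 10 were near and clonotype 18 was above. In all 3 the pair Klrg1 and Cx3cr1 exceeded the other pair by far more than counting error, with balances of 4.54 (95% interval 3.63 to 5.04), 4.04 (2.99 to 4.66) and 3.19 (2.09 to 4.30).

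Among the 12 clonotypes of the opposite pattern Pdcd1 ranged from 257 CPM (clonotype 4) to 477 CPM (clonotype 9). Adgrg1 varied more, from 24.8 CPM in clonotype 16 to 258 CPM in clonotype 9. Klrg1 was between 0 and 35.9 CPM and Cx3cr1 between 0 and 56.9 CPM. The highest Klrg1 and Cx3cr1 values of these 12 were both in clonotype 17, and clonotypes 16, 6 and 5 followed for Cx3cr1 with 44.6, 39.0 and 30.5 CPM. The balances ran from -2.31 in clonotype 17 over -2.64 (16), -2.68 (6), -3.93 (5), -4.12 (4), -4.41 (12), -4.58 (14), -4.76 (3), -4.84 (8), -5.18 (11) and -5.30 (9) to -5.62 in clonotype 13. The intervals of neighbours in this order overlapped except between clonotypes 6 (-3.15 to -2.22) and 5 (-4.43 to -3.44). The largest clonotype, for comparison, had a balance of -5.73, with 382 CPM of Pdcd1 and 254 CPM of Adgrg1.

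Clonotype 15 had 165 CPM of Klrg1, 85.8 CPM of Cx3cr1, 243 CPM of Pdcd1 and 39.4 CPM of Adgrg1. Its balance of -0.17 had an interval of -0.54 to 0.20 and so cannot be put on either side of 0. Of its 41 cells, 24 (58.5%) held UMIs of both pairs, 8 of Klrg1 or Cx3cr1 only, 7 of Pdcd1 or Adgrg1 only and 2 of neither. A share of 59.0% with both would follow from the 2 separate shares if they were unrelated among its cells. More of its cells thus held both pairs than either pair alone.

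Clonotype 2, the largest of the members, had 2.61 CPM of Klrg1 (2 UMIs), no Cx3cr1 UMI, 22.2 CPM of Pdcd1 and 11.8 CPM of Adgrg1. Neither pair was detected in 143 of its 166 cells (86.1%). Its receptor is printed because no other member had this profile.
clonotype 2 TRA: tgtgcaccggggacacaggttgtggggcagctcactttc
clonotype 2 TRB: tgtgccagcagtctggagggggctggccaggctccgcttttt

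Single cells gave the same picture as the sums. In clonotypes 7, 10 and 18 between 44.4% and 58.7% of cells had Klrg1 or Cx3cr1 without the other pair and 1.33% to 12.9% had both. In the 12 clonotypes of the opposite pattern 50% to 95.3% had Pdcd1 or Adgrg1 alone. Clonotype 17 had the largest share with both among these 12, at 43.8% of 32 cells, and its median depth was the highest of all. Free RNA can give a UMI in cells that do not express a gene, so the cells of single-cell clonotypes with a UMI of Ccr7, which marks naive cells, serve as the background: 1.95% and 1.08% of them had Klrg1 or Cx3cr1 and 2.59% and 3.73% had Pdcd1 or Adgrg1 in pools 1 and 2, at medians of 8805 and 9044.5 UMIs per cell, both above the medians of all members except clonotypes 15 and 17. The 1.20% of clonotype 2 with Klrg1 or Cx3cr1 is therefore near the background, while its 12.7% with Pdcd1 or Adgrg1 is above it. After each cell was thinned to 2000 UMIs, Klrg1 was detected in 24.7%, 7.94% and 29.0% of the cells of clonotypes 7, 10 and 18 and in 29.3% of clonotype 15, against 48.0%, 23.8%, 38.7% and 68.3% before thinning, and in 0.633% and 0.386% of the naive reference.

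**Figure D2:**
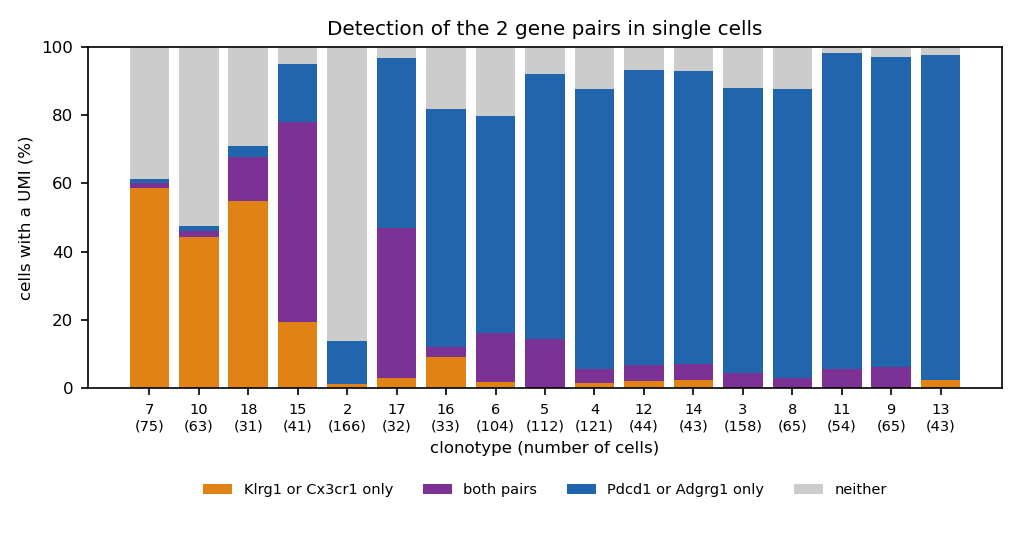
Share of cells (percent, vertical) with a UMI of Klrg1 or Cx3cr1 only, of both pairs, of Pdcd1 or Adgrg1 only, or of neither, for each clonotype in order of balance, with its number of cells in brackets. Klrg1 or Cx3cr1 only (orange) takes the largest share in clonotypes 7 and 18 and neither (grey) in clonotypes 10 and 2, both pairs (purple) lead in clonotype 15, and Pdcd1 or Adgrg1 only (blue) leads in the other 12.

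Just outside the 30-cell limit, the clonotypes with 28, 27 and 26 cells had balances of 5.14, 4.30 and -4.46, and the one of 27 cells is that with the TRA of clonotype 7. Of the 9 clonotypes of 20 to 28 cells, 6 had a balance above 0, from 1.76 to 6.26, and all 6 were among the 7 of pool 1. The split of 3 above 0 and 14 below thus depends on where the limit is set. The smallest members, with 33, 32 and 31 cells, had -2.64, -2.31 and 3.19. In the Control pools 19 clonotypes had 10 or more Cd8 cells (4 in pool 1, 15 in pool 2), and their balances ran from -5.24 to 2.30, with 13 above 0, 4 below and 2 at 0. Their highest Pdcd1 level was 230 CPM and their highest Klrg1 level 61.3 CPM, in clonotypes of 11 cells each. Their highest Cx3cr1 levels, 309 CPM in a clonotype of 12 cells and 218 CPM in one of 14, were above those of every member (at most 182 CPM), and their highest Adgrg1 level was 138 CPM. Cells of single-cell clonotypes had between 1.76 and 8.07 CPM of Pdcd1 and between 2.59 and 7.17 CPM of Klrg1 in the 4 pools.

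Other genes followed the balance. Over the 3933 genes with 50 CPM or more in at least 3 members, Spearman's rho with the balance was above 0.8 for 16 and below -0.8 for 48. The 17 points share 2 pools and differ in depth, so rho is given as a description. In 95 of these genes (2.42%) all 3 clonotypes with a balance above 0 were higher than all 14 others, and in 94 (2.39%) all 3 were lower. The upward share is partly set by the limit of 50 CPM. In 12 of the 95 genes only these 3 clonotypes reached it, so that the genes had to separate, and in 22 fewer than 3 of the other 14 did. These shares stand as the background for the listed genes named next.

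Of the 12 listed effector genes, 9 could be described. S1pr5 and Zeb2 were above the limit of 50 CPM in clonotypes 7, 10 and 18 alone, so their separation followed from the limit and is given as levels only. S1pr5, a sphingosine receptor for leaving tissue, was at 130, 83.5 and 111 CPM in clonotypes 7, 10 and 18 and at 5.57 CPM or less in all others. Zeb2, a transcription factor of terminal effector cells, was at 161, 278 and 325 CPM there and at 1.31 to 44.0 CPM in the rest. Klf2, which maintains S1pr1, was at 489, 597 and 1562 CPM against 59.2 to 369 CPM. Single-cell clonotypes had 1920 and 2420 CPM of Klf2 in pools 1 and 2, above every member. Prdm1 (Blimp-1) was lower in the 3, at 33.1 to 46.4 CPM against 64.0 to 137 CPM. Tbx21 (T-bet) overlapped, with 135, 161 and 228 CPM in the 3 and 199 CPM in clonotype 2.

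Of 12 naive and memory genes, 6 could be described. Tcf7, the transcription factor of naive and stem-like T cells, was at 300, 297 and 150 CPM in clonotypes 7, 10 and 18, next at 135 CPM in clonotype 2 and at 3.0 to 49.6 CPM in the other 13. Il7r, the receptor for the survival factor interleukin-7, was at 63.8, 111 and 58.6 CPM in the 3 and at 0 to 26.1 CPM in the others. Il7r reached 50 CPM in these 3 alone and Tcf7 in 1 further member, so here too the limit favoured genes that separate. Single-cell clonotypes had 346 and 348 CPM of Tcf7 and 208 and 128 CPM of Il7r, in both genes above every member. Ccr7, which takes naive cells into lymph nodes, did not follow this pattern and was at 47.3, 3.09 and 0 CPM in clonotypes 7, 10 and 18, against 701 and 868 CPM in single-cell clonotypes. Cd27 was lower in the 3, at 78.0 to 91.1 CPM against 183 to 328 CPM.

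Of 17 inhibitory receptors and exhaustion factors, 16 could be described, and 14 of these had a negative rho (median over the 16, -0.623). Over all 3933 genes the median was -0.0510, and there too a negative rho was more common than a positive one. Tox was at 28.4, 61.8 and 58.6 CPM in clonotypes 7, 10 and 18, at 146 CPM in clonotype 2 and at 308 to 587 CPM in the other 13. Ctla4 was at 16.6 to 58.6 CPM in the 3 and 230 to 996 CPM elsewhere, and Maf had 0 UMIs in the 3 and 45.7 to 358 CPM elsewhere. Lag3 did not separate fully, since clonotype 18 had 124 CPM and clonotype 2 had 87.5 CPM, while the other 13 of balance below 0 had 332 to 863 CPM. Nr4a1, a gene induced within hours of TCR engagement, went the other way, with 366, 365 and 488 CPM in the 3 and 52.2 to 303 CPM in the others. Single-cell clonotypes had 351 and 348 CPM of Nr4a1 in pools 1 and 2. Clonotypes 7 and 10 were thus near that level, clonotype 18 was above it and all others were below it. In Nr4a2, of the same family, the ranges overlapped, at 228 to 556 CPM and 364 to 1116 CPM.

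Of the 13 granule proteins and secreted effectors, chemokines among them, 11 could be described. None separated, which at the background shares above says little. Of the 11, 7 had a negative rho (median -0.328). This sign was also the more common one over all 3933 genes (median -0.0510). Gzma (granzyme A) spanned a wide range, from 8.57 CPM in clonotype 4, 8.99 CPM in clonotype 17 and 14.4 CPM in clonotype 2 to 3925 CPM in clonotype 18 and 4639 CPM in clonotype 5, and its rho was 0.034. Clonotypes 12 and 15 were also low, at 38.2 and 41.7 CPM, and single-cell clonotypes had 77.9 and 68.0 CPM. Gzmb (granzyme B) was far above the single-cell clonotypes' 38.5 and 49.1 CPM in every member, at 321 to 1567 CPM, and Gzmk (granzyme K) at 218 to 1136 CPM against 33.4 and 45.6 CPM. Clonotypes 7 and 10 had the lowest Gzmk (218 and 241 CPM) and the lowest Prf1 (perforin, 54.4 and 40.2 CPM). In clonotypes 2, 4, 12, 15 and 17 Gzma was thus below the level of single-cell clonotypes while Gzmb was above it.

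**Figure D3:**
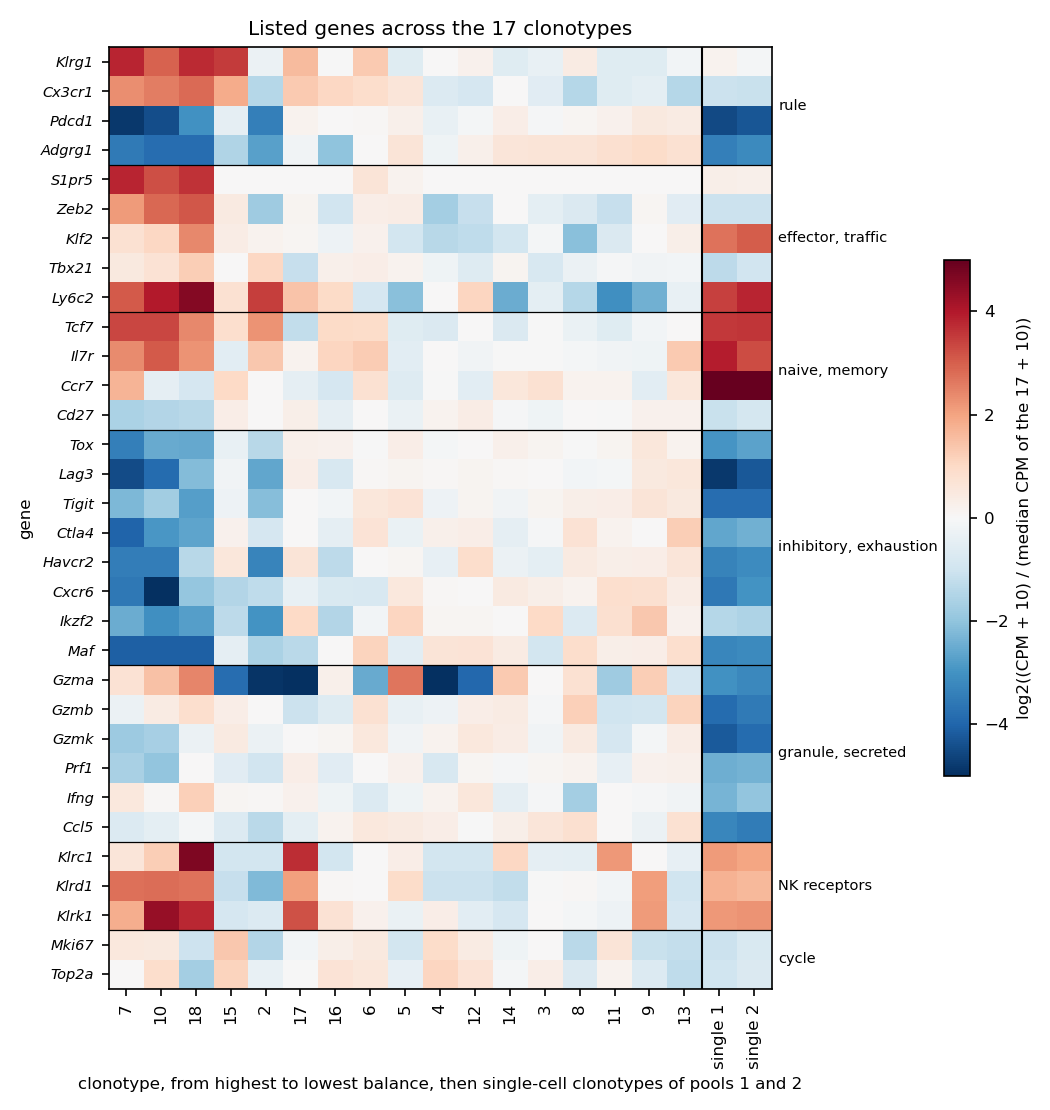
Level of listed genes (rows, grouped by list) in the 17 clonotypes (columns, from highest to lowest balance) and in single-cell clonotypes of pools 1 and 2, as log2 of CPM plus 10 over the members' median CPM plus 10. The left 3 columns are red for S1pr5, Zeb2, Tcf7 and Il7r and blue from Tox to Maf, the Gzma row changes colour from column to column, and Klrc1 is darkest in clonotypes 18 and 17.

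The named genes with the highest rho were Prkcq (protein kinase C theta, 0.907), Ahnak (0.887), Gm2682 (0.877), Plec (0.873), Glipr2 (0.870), Dgka (0.853), Gramd3 (0.843), S1pr4 (0.843), Selplg (0.841) and Kbtbd11 (0.826). Within pool 1 (6 clonotypes) the same genes had rho of 0.771 to 0.943 and within pool 2 (11 clonotypes) of 0.727 to 0.918. Prkcq, which passes on the TCR signal, was at 158 to 228 CPM in clonotypes 7, 10 and 18 and at 49.3 to 150 CPM in the rest. Ahnak, a giant scaffold protein, was at 773 to 1491 CPM and 150 to 723 CPM. Selplg, the ligand of selectins on blood vessels, overlapped at 560 to 879 CPM and 394 to 679 CPM.

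At the other end stood Tox2 (-0.929), Glcci1 (-0.924), Cd3g (-0.917), Tigd2 (-0.912), Dapk2 (-0.907), Cxcr6 (-0.897), Nedd9 (-0.890), H3f3b (-0.890), Sept4 (-0.887) and Naa20 (-0.887). Within the pools their rho ran from -0.543 to -1 and from -0.818 to -0.936. Cxcr6, a chemokine receptor of tissue-resident cells, was at 30.7, 3.09 and 117 CPM in clonotypes 7, 10 and 18 and at 165 to 854 CPM in the other 14. Cd3g, a subunit of the TCR complex, was at 733 to 859 CPM against 1221 to 2639 CPM and so did not overlap, with single-cell clonotypes at 585 and 674 CPM. Tox2, related to Tox, was at 2.36, 0 and 6.51 CPM against 41.9 to 149 CPM in all others but clonotype 2 (1.31 CPM).

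Beyond this axis each clonotype had leading genes of its own, by the ratio of its CPM plus 10 to the median CPM of the other 16 plus 10. A gene can lead in a clonotype by this ratio while another member has a higher level. The most private was Prss2 in clonotype 14, at 1486 CPM (95% interval 1336 to 1649), in 43 of 43 cells and with no UMI in any other member. Prss2 encodes an anionic trypsinogen of the pancreas and lies inside the TRB locus at chr6:41521787-41525079 (GRCm38), on the plus strand. It ends 8122 bases before Trbd1 and starts 391202 bases after Trbv13-3, the V gene of this clonotype, and the joining segment of this clonotype, Trbj2-4, begins 18283 bases after its end. With the cells outside the gate, all 45 cells with this receptor had it. In the rest of fusion pool 2 there were 209 UMIs in 43 cells, and the other 3 pools had 252 UMIs in 90 cells, 155 in 47 and 159 in 39.

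A pair of clonotypes of pool 2 nearly lacked a Y-linked gene. The 5734 paired Cd8 cells of fusion pool 1 held 19526 Xist UMIs and none of 4 Y-linked genes, as in female mice, and the 5633 of pool 2 held 2703 Ddx3y and 3796 Eif2s3y UMIs with 23 of Xist, as in males. Ddx3y, a Y-linked RNA helicase at chrY:1260771-1286629, had 2 UMIs in the 65 cells of clonotype 9 (4.48 CPM) and 1 UMI in the 41 cells of clonotype 15 (2.32 CPM). In the other 9 members of pool 2 it was at 65.3 to 104 CPM, with 13 to 81 UMIs. Eif2s3y, also on the Y chromosome, was at 155 and 99.7 CPM in clonotypes 9 and 15, above and within the range of the other 9 (84.6 to 135 CPM), and Kdm5d and Uty were detected in both. Of all 25 clonotypes of pool 2 with 10 or more cells, these 2 had the lowest Ddx3y levels, and the next, of 10 cells, had 12.9 CPM from 1 UMI.

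**Figure D4:**
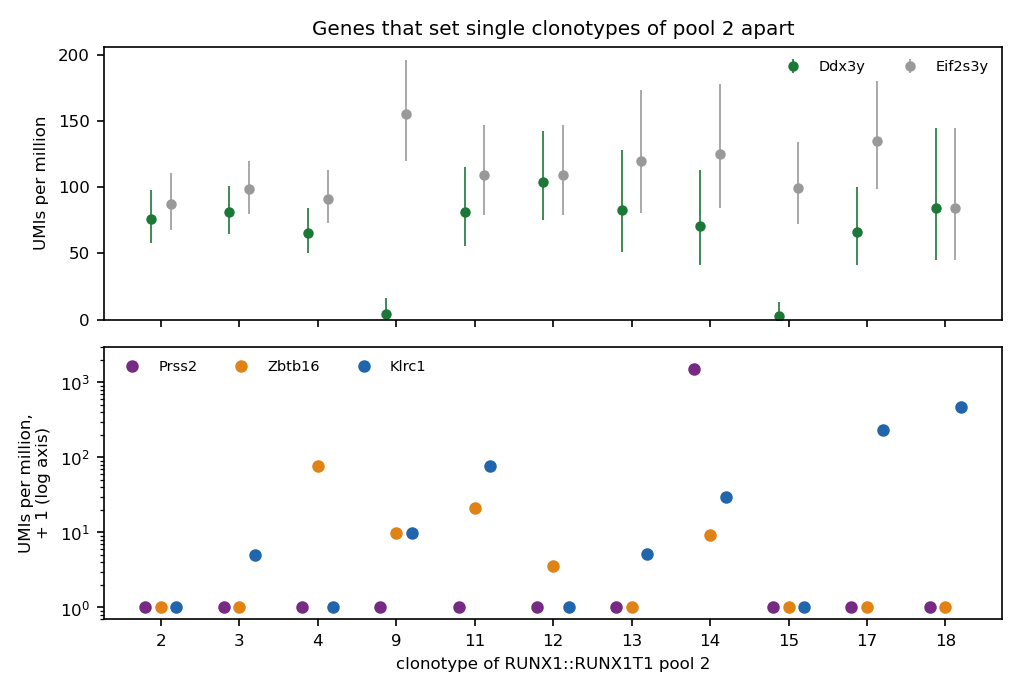
Top, Ddx3y and Eif2s3y (CPM, with exact Poisson 95% intervals) in the 11 clonotypes of pool 2. Bottom, Prss2, Zbtb16 and Klrc1 (CPM plus 1, log axis). Ddx3y is near 0 in clonotypes 9 and 15 only while Eif2s3y is not, Prss2 is above 0 in clonotype 14 only, and Klrc1 is highest in clonotypes 17 and 18.

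Clonotype 4 led in Zbtb16 (PLZF, the factor of innate-like T cells), at 76.0 CPM in 44 of 121 cells against at most 20.3 CPM in any other member, and in Izumo1r (folate receptor 4), at 640 CPM in 115 cells, next 204 CPM in clonotype 3. Rgs16, a regulator of G protein signalling, was at 1937 CPM there and at 1300 CPM in clonotype 17. Gng3 and Susd2 were its other leading genes, and 8 of the 9 cells of clonotype 4 outside the gate lacked Cd8a and Cd8b1 UMIs. The 3 listed innate-like genes summed to 77.1 CPM in clonotype 4, of which Zbtb16 made 76.0, and to 64.9 and 49.7 CPM in clonotypes 10 and 7, which had no Zbtb16 UMI.

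Clonotype 2 led in Ly6c2 (Ly-6C, of memory and effector Cd8 cells, 1646 CPM in 146 of 166 cells), Emb (206 CPM), Ccr2 (115 CPM), Gramd3 (805 CPM) and Tnf (tumour necrosis factor, 135 CPM). In all of these except Gramd3 another member was higher, clonotype 18 for Ly6c2 (3547 CPM), Ccr2 (312 CPM) and Tnf (169 CPM) and clonotype 7 for Emb (258 CPM). Single-cell clonotypes had 1571 and 2097 CPM of Ly6c2, while the 12 clonotypes of the opposite pattern had 7.62 to 386 CPM and clonotype 15 had 246 CPM. Clonotype 2 also had the highest summed level of the 12 genes of recent TCR engagement, 10610 CPM against 2756 to 7492 CPM in the other members. Most of that sum was Junb (6888 CPM) and Jun (1251 CPM), subunits of the AP-1 factor, both highest here, while Tnfrsf9 (4-1BB), on a list with them, was at 2.61 CPM in clonotype 2 and at 0 to 583 CPM in the members. Its summed interferon response, 1497 CPM, was followed by that of clonotype 18 with 1471 CPM and of clonotype 16 with 674 CPM.

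Natural killer receptors set clonotypes 7, 10, 17 and 18 apart, with summed levels over 16 genes of 896, 1187, 986 and 1211 CPM against 17 to 381 CPM in the others. Clonotype 10 led in Klrk1 (NKG2D, 359 CPM) and Klre1 (223 CPM), clonotype 7 in Klre1 (196 CPM) beside Klrg1, S1pr5 and Emb, and clonotype 18 in Klrc1 (NKG2A, 475 CPM in 24 of 31 cells) and Klrk1 (234 CPM), beside Ly6c2, Ccr2 and Lmna. Clonotype 17 led in Klrc1 (234 CPM in 24 of 32 cells) and Klra3 (168 CPM). It had these beside 383 CPM of Pdcd1 and 479 CPM of Tox, whereas clonotypes 7, 10 and 18 were low in both. Xcl1, a chemokine for cross-presenting dendritic cells, was at 665 CPM in clonotype 10, where 2 of 63 cells held 44.2% of its 215 UMIs.

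Clonotypes 5, 9 and 11 shared leading genes across the 2 pools. Cd200r2, a member of the CD200 receptor family, was at 158, 159 and 86.4 CPM there and Glp1r, the receptor for glucagon-like peptide 1, at 101, 121 and 94.0 CPM. Clonotype 14 had 95.7 and 79.1 CPM and clonotype 8 had 48.8 and 66.2 CPM, and the largest clonotype had 210 and 120 CPM. They were at 0 to 3.0 and 0 to 6.51 CPM in clonotypes 2, 4, 6, 7, 10, 12, 15, 16, 17 and 18, and single-cell clonotypes had at most 0.5 and 0.834 CPM. Atp1b1, a sodium pump subunit, led in clonotypes 5 (146 CPM) and 12 (140 CPM). Csf1 and Rpl39l led in clonotype 11, Car2 in clonotypes 3 (52.3 CPM) and 9 (181 CPM), and Coch in clonotypes 6 (586 CPM) and 13 (440 CPM). Car2 was also higher in clonotypes 5 (119 CPM), 14 (112 CPM), 17 (98.9 CPM) and 11 (81.3 CPM) than in clonotype 3.

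Among the other leading genes Il10, the gene of an anti-inflammatory cytokine, was at 282 CPM in 25 of 43 cells of clonotype 13, next 121 CPM in clonotype 4. Chn2 and Osgin1 were highest in clonotypes 14 (354 and 362 CPM) and 9 (294 and 397 CPM), and Chn2 was also among the leading genes of clonotypes 8 and 13. Spp1 (osteopontin) was at 554 CPM in 24 of 32 cells of clonotype 17, of which 2 held 47.6% of the UMIs. Its 490 CPM in clonotype 6 came from 20 cells of which 2 held 71.6% of the UMIs. Serpina3f (106 CPM) was a leading gene of clonotype 6, and Cd6, Ly6a and Ifi27l2a were leading genes of clonotype 16, where Ifi27l2a was at 1140 CPM, below the 1430 CPM of clonotype 15. Tnfrsf4 (OX40, 102 CPM), Wls, C2cd4b and Capg led in clonotype 12, Camk2n1, Cela1 and Wdr95 in clonotype 8 and Xlr3b, Cdk5rap1, Tmem273 and Cd244a in clonotype 3. Of these, Wls, C2cd4b, Capg, Xlr3b, Tmem273 and Cd244a were higher in another member. Xist was a leading gene of all 6 clonotypes of pool 1, at 352 to 585 CPM, and had no UMI in the 11 of pool 2.

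Some leading genes belong to other cell types, and 1 or 2 cells held most UMIs of several of them. All 162 Hbb-bs and 87 Hbb-bt UMIs of clonotype 17 were in 1 of its 32 cells, and the 6 erythroid markers summed to 863 CPM there against 0 to 12.5 CPM in the other members. All 54 Mpo UMIs of clonotype 15 were in 1 cell, as were 94.1% of its Cpa3 UMIs, and in clonotype 9, 2 of 65 cells held 97.4% of 76 Mpo UMIs. The 6 myeloid markers summed to 179 CPM in clonotype 9, 141 CPM in clonotype 15 and 66.1 CPM in clonotype 11, and to at most 19.5 CPM in the other 14, and Lyz2 among them was at most at 11.6 CPM. Cpa3 had 26292 and 23095 UMIs in the 2 fusion pools and 23 and 118 in the Control pools over all cells. In clonotype 16, 1 of 33 cells held 39.4% of 33 Igkc UMIs. The part of such cells in the values of these clonotypes was not tested.

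In likeness of the whole profile, clonotypes 7 and 10 were each the other's nearest among the 17 members (Pearson's r of log2 of CPM plus 10 over 3934 genes, 0.955). The highest r among the members was 0.960, between clonotypes 3 and 5. Clonotype 18, from the other pool, was most like clonotype 7 (0.914). Clonotype 2 was most like clonotype 7 as well (0.929), although both its Klrg1 and its Cx3cr1 were near the background. Clonotypes 9 and 14, with similar TRB chains, were most like clonotypes 5 (0.958) and 3 (0.95) among the members, and their r with the largest clonotype was higher still (0.969 and 0.961). The largest clonotype was most like clonotype 3 (0.973) and least like clonotype 18 (0.822). Genes are not independent replicates, and small clonotypes have noisier profiles and so lower r.

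The only replicated comparison set the members against Cd8 cells whose clonotype had a single cell, in the same 2 pools. It asks how the summed members differed from cells without expansion, and a sum need not describe each of its clonotypes. Most reference cells, 3479 of 4354 in pool 1 and 2600 of 3180 in pool 2, had a UMI of the naive marker Ccr7. The comparison is therefore largely one with naive cells. In each pool the UMIs of the 452 or 798 member cells and of the 4354 or 3180 reference cells were summed and compared by edgeR's quasi-likelihood test, in which the pool was a blocking term (n = 2 pools, 1 residual degree of freedom). The pools were assumed to be independent, and the members of a pool share its mice. Of 11726 genes tested, 4626 (39.5%) passed an adjusted p of 0.05, of which 2179 (18.6%) were higher and 2447 (20.9%) lower in the members. DESeq2 called 2528 genes. In simulated data the edgeR test found most of the changed genes but made more false calls than its threshold allows, so the number of calls is probably too high. Counts of listed genes below are to be read against the shares of edgeR. Median UMIs per cell were 5625 in the members and 8590 and 8778 in the reference. Fold changes are on edgeR's TMM scale, where a log2 fold change is 0.36 (pool 1) and 0.33 (pool 2) lower than the log2 ratio of CPM.

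Of 17 inhibitory receptors and exhaustion factors, 15 rose and 1 fell (median log2 fold change 2.51, against -0.01 over all genes). Tox was at 326 and 376 CPM in the members of pools 1 and 2 and at 42.6 and 54.4 CPM in the reference (log2 fold change 2.51, SE 0.08, edgeR adjusted p = 4.3e-06). Lag3 was at 411 and 546 CPM against 10.9 and 21.6 CPM (4.6, SE 0.15), Havcr2 (TIM-3) at 71.8 and 94.1 CPM against 1.01 and 2.30 CPM (5.35, SE 0.19), and Tigit rose by a log2 fold change of 3.71 (SE 0.08). Nr4a1 fell (-1.48, SE 0.08). Not every member followed the sums. Clonotype 7 was at 28.4 CPM of Tox (95% interval 14.7 to 49.6) and 2.36 CPM of Pdcd1 (0.0599 to 13.2). Both intervals hold the 42.6 and 5.41 CPM of the reference of its pool. In clonotypes 7, 10 and 18 Ctla4, Ikzf2 and Maf had lower levels than the reference, in part within counting error. The 5 genes the study had named on these samples all rose, which is not independent evidence of their direction, since they were picked from these libraries.

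Granule and secreted genes rose in 10 of 13 and fell in 3, with a median log2 fold change of 2.17. Gzmb was at 832 and 673 CPM against 38.5 and 49.1 CPM (3.76, SE 0.16), Gzmk at 706 and 802 CPM against 33.4 and 45.6 CPM (3.92, SE 0.09), and Ccl5 at 46900 and 40500 CPM against 4030 and 3450 CPM (3.20, SE 0.02). Gzma differed between the pools, with 2030 CPM in the members of pool 1 and 511 CPM in those of pool 2, against 77.9 and 68.0 CPM in the reference (3.47, SE 0.40). Xcl1, Gzmm and Tnf fell. Of 12 effector genes 10 rose and 2 fell (median 2.24). Klf2 was 1 of the 2 that fell (-3.25, SE 0.10). S1pr5 rose in the sum of all members (2.31, SE 0.66, edgeR adjusted p = 0.0332), with a log2 difference of 3.43 in pool 1 and 0.45 in pool 2, and without clonotypes 7, 10 and 18 its log2 fold change was -2.0 and did not pass the test. Its call was also lost without the pool as a block, at limits of 20 and of 50 cells and with all other paired Cd8 cells as reference.

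Of 12 naive and memory genes, 11 fell and 1, Cd27, rose (median -3.0). The call of Cd27 was lost without the pool as a block and at a limit of 20 cells. Ccr7 was at 14.4 and 11.1 CPM against 701 and 868 CPM (-6.33, SE 0.16), and Tcf7 at 108 and 37.7 CPM against 346 and 348 CPM (-2.77, SE 0.32). Tcf7 in pool 1 was carried by clonotypes 7 and 10 at 300 and 297 CPM. Among 13 tested natural killer receptors 9 fell and 1 rose (median -1.66). Klrd1 (-1.12, SE 0.26) and Klrk1 (-1.19, SE 0.26) fell in the sums, but not in every clonotype. Klrd1 was at 207 to 359 CPM in clonotypes 7, 9, 10, 17 and 18, against 167 and 152 CPM in the reference of pools 1 and 2. Klrk1 was at 359, 156 and 234 CPM in clonotypes 10, 17 and 18, against 70.6 and 75.6 CPM in the reference, while clonotype 7 had 54.4 CPM. Both calls were lost with DESeq2 and at a limit of 20 cells, that of Klrd1 also without the pool as a block and that of Klrk1 without the largest member of each pool.

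Homing genes fell in 9 of 16 and rose in 4, Cxcr6 among these (3.03, SE 0.09). Of 22 proliferation genes 9 passed the test, near the share over all genes (39.5% in either direction, 18.6% higher in the members). All 9 were higher in the members (median 0.51). Mki67 was at 52.1 and 60.1 CPM against 19 and 25.7 CPM (0.99, SE 0.10), and among the members it ran from 11.8 CPM in clonotype 2 to 144 CPM in clonotype 15. Genes of recent TCR engagement rose in 3 and fell in 6 of 12 (median -0.06). Interferon response genes rose in 1 and fell in 3 of 9 (median 0.14), which is also near the share over all genes.

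**Figure D5:**
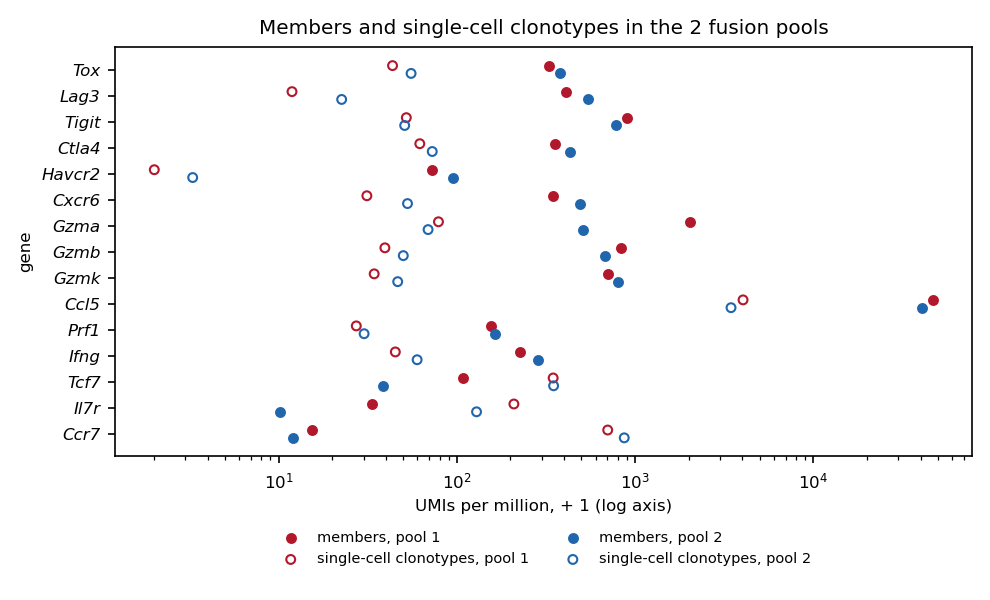
CPM plus 1 (log axis) of 15 listed genes in the summed members (filled) and in the summed single-cell clonotypes (open) of the 2 fusion pools. In both pools the filled points lie to the right for the 12 genes from Tox to Ifng and to the left for Tcf7, Il7r and Ccr7.

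By the rule of size, the 10 genes with the highest fitted fold changes among those that rose were Ccdc80, Cd200r2, Tmprss6, Epdr1, AC149091.1, Rasd2, Coch, Mrc2, Glp1r and Tox2. All but Coch (log2 fold change 6.52) and Tox2 (5.60) had 0 to 4 UMIs in the reference of pool 1, with 0 for Ccdc80 and Epdr1, so the fitted values do not rank these genes. Their size varied between the pools, with a log2 difference of 8.33 in pool 1, where the reference held 1 UMI, and 5.28 in pool 2 for Cd200r2 and of 7.20 and 4.53 for Glp1r. Most were nearly absent from the reference: Coch had 571 and 741 UMIs in the members (452 and 798 cells) and 32 and 73 in the reference (4354 and 3180 cells). Coch was nonetheless uneven among the members, at 0 to 2.36 CPM in clonotypes 2, 7, 10 and 18 and at 23.2 to 586 CPM in the other 13.

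The 10 genes with the lowest fitted fold changes all had no UMI in the members of either pool, so their folds are lower bounds against 3 UMIs per pool and do not rank them. Ccr7, with UMIs counted in both groups, fell from 701 and 868 CPM to 14.4 and 11.1 CPM. Slc6a19, an amino acid transporter, was at 7.96 and 8.31 CPM in the reference and at least 6.62-fold and 14.8-fold lower in the members. Gabrr2, a GABA receptor subunit, was at least 4.14-fold and 9.18-fold lower and Trnp1 at least 6.83-fold and 3.07-fold lower. The other 7 were Gm26771, Gm32633, 1700062C10Rik, Auts2, Gm11342, Pard6g and B630019A10Rik, with bounds of 2.36-fold to 4.86-fold in pool 1 and 5.45-fold to 7.23-fold in pool 2.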

How the data were processed

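Per the labels and the study's methods, DAPI- mCherry- CD3+ cells of marrow were run on 10x 5′ gene expression and TCR libraries, and the authors ran Cell Ranger 6.1.2 on GRCm38. The deposited matrices hold UMI counts per gene and barcode, not normalized, and the deposited contig tables UMI counts per TCR chain. From these, cells were gated and clonotypes built as stated above, counts were summed per clonotype or pool, and CPM with exact intervals computed (scipy 1.17.1). edgeR 4.0.16 (TMM, filterByExpr, Benjamini-Hochberg) compared members with single-cell clonotypes. TCR genes, Cd8a, Cd8b1 and Cd4 were fitted but not reported. On simulated data the test found most changed genes and made more false calls than the threshold of 0.05 allows. The replicate number is the pool from which both sums come, hence the block. Scrublet (scanpy 1.11.5, expected rate 0.05) marked 684 cells of pool 2. In pool 1 its threshold marked 1 cell, so the top 5% of scores, 759 cells, were taken. Doublets stayed in except where stated. The members, gene lists and rules were chosen with earlier results of these data known. Named genes are the 4 of the rule, listed genes, the 10 largest changes each way (50 UMIs or more), the 10 highest and lowest rho, and the 5 highest ratios per clonotype (30 UMIs or more). The annotation release is not given in the sources used here, and positions are from GENCODE M21. One gene of the lists is deliberately not reported here. It enters list counts and sums, as do listed genes that the text does not name.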

Additional observations from a re-analysis of the deposited data

How the results depend on the processing

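The number of members depends on the size limit by construction, with 10 clonotypes at 50 or more cells and 26 at 20 or more, and was 15 to 20 under the other 6 definitions tried. The number with a balance above 0 was 3 or 4 under 5 alternatives that kept the size limit, 2 of 10 at 50 or more cells and 9 of 26 at 20 or more (limits chosen after seeing the data). Only clonotype 15 changed sign, to 0.31 with cells thinned to 2000 UMIs and 0.07 with the mean of single-cell CPM. DESeq2 1.42.0 called 2528 genes between members and single-cell clonotypes in place of 4626, and the cause was not tested. Of 52 single genes followed, 7 no longer passed with it: Gm26771, Gm32633, Trnp1, Auts2, Klrd1, Klrk1 and Klrc1. Without the replicate block edgeR called 4694, and S1pr5, Cd27, Klrd1 and Trnp1 no longer passed. The other 8 alternatives called 3262 to 5244, including 4696 with only the clonotypes of balance below 0, added after seeing the data, where S1pr5 turned to -2.0. Calls were also lost at 20 or more cells (S1pr5, Cd27, Klrd1, Klrk1 and Klrc1), at 50 or more (S1pr5 and Zeb2), with all other paired Cd8 cells as reference (S1pr5) and without the largest member of each pool (Klrk1). Leaving out a pool leaves no test, and the fold change of 16 of the 52 genes without pool 1 and of 12 without pool 2 moved by more than the spread between the pools. With 31 to 166 cells per clonotype and 2 pools of mixed mice, differences between clonotypes have no replicate check, and levels of a few CPM rest on single UMIs.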
